A study of Homo sapiens with 6 samples.

Results

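Neuropeptides and granins are the cargo of the dense-core vesicle, the organelle from which neuroendocrine cells release peptides upon stimulation. The 10 genes described here are 2 neuropeptide precursors (CRH and NPY), the granins and granin-like proteins VGF, CHGA, CHGB, SCG2, SCG3 and SCG5, and the prohormone convertases PCSK1 and PCSK2. They were taken by name out of the 60651 gene identifiers in the count data, and all 10 were found. The set was put together around CRH and VGF, which were selected on their rise in the same contrast that is described below. The values of all 10 genes in that contrast are therefore given as a description, without a test.

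The human cell line SK-N-AS was established from a neuroblastoma and has no MYCN amplification. In the model used here, cells carried a tetracycline-inducible MYCN expression construct together with the tetracycline repressor, and single clones were kept under selection with 500 µg/ml G418 and 5 µg/ml blasticidin in all cultures. After ribosomal RNA had been removed, total RNA was sequenced for 3 control cultures, labelled ETOH, and for 3 MYCN-induced cultures given tetracycline for 120 h (5 days). Since only the induced cultures received tetracycline, an effect of MYCN and an effect of tetracycline itself cannot be told apart, and the values hold for clonal cells of this line.

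Peptide precursors enter the secretory pathway, where the acidic granins aggregate and help to sort cargo into dense-core vesicles. The convertases PC1/3 (PCSK1) and PC2 (PCSK2) then cut the precursors at pairs of basic residues, and carboxypeptidase E and the amidating enzyme PAM finish the peptides. Chromogranin A, encoded by CHGA, is used as a marker of neuroendocrine tumors including neuroblastoma, and NPY is known as a peptide of sympathetic neurons. CRH encodes corticotropin-releasing hormone, which starts the hormonal stress axis in the hypothalamus, and VGF is known as a gene induced by nerve growth factor. Promoters of several such genes carry the cAMP response element, whose full palindrome is TGACGTCA.

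The sequences just upstream of VGF and CHGA are shown because both hold this palindrome, whereas the genes differed in opposite directions between the conditions. Each run is the 250 bases before the gene start in the RefSeq promoter table, 5′ to 3′ on the strand of the gene (build GRCh38.p14), with TGACGTCA and the E-box CACGTG in capitals. The VGF sequence lies at chr7:101165570-101165819 on the minus strand and the CHGA sequence at chr14:92922900-92923149 on the plus strand, and both end at the gene start given in the count data.
VGF: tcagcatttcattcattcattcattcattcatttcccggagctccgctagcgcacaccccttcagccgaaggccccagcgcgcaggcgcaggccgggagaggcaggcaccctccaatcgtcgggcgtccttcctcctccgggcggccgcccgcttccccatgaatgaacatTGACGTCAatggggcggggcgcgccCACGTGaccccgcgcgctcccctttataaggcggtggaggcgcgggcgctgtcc
CHGA: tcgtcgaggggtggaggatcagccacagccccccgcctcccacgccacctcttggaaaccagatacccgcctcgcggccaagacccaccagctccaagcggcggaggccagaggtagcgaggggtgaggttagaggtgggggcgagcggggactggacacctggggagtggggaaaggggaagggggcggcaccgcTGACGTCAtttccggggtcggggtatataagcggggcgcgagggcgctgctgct

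The palindrome begins 79 bases before the start of VGF and 54 bases before that of CHGA. Windows of 300 bases, from 250 before to 50 after the start, were at hand for 7 of the 10 genes, with a pair of windows each for PCSK1 and PCSK2. CRH, CHGB and SCG2 were not analysed here in this way. Of the 7 genes, VGF, CHGA and PCSK1 held TGACGTCA, which occurred in 1.85% of the 35116 windows of all genes. The CACGTG letters, the canonical E-box recognized by MYC family proteins, occurred in VGF alone among the 7, beginning 54 bases before its start, and in 7.26% of all windows. The shorter TGACG, which is part of TGACGTCA, was present in 6 of the 7 genes and in 24.6% of all windows. TGATGNAA, the letters of a composite site for C/EBP and ATF proteins, occurred in 1 of the 7 (PCSK1) and in 3.62% of all windows. TATAAA occurred in 2 of the 7 (VGF and PCSK1) and in 11.5% of all windows. In PCSK1, TGATGNAA and TATAAA lay in the other window than TGACGTCA, and neither window was placed on the gene start given in the count data. The shares over all are per window, so PCSK1 and PCSK2, with a pair each, had more room for a match. All letters were searched on both strands, and a match describes letters, not binding.

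Counted read pairs ranged from 64500589 to 102249336 per library, and 29086 genes passed a filter of at least 10 counts in at least 3 libraries. MYCN itself stood at 30.3, 35.5 and 32.4 counts per 1000000 counted pairs (CPM, scaled by TMM factors that even out library composition) in control replicates 1, 2 and 3, and at 211, 221 and 199 CPM in the MYCN-induced replicates. These counts cannot separate the gene of the cell from the construct. The libraries thus matched their labels, with a log2 fold change of 2.68 ± 0.08 (SE, adjusted p = 4.15e-05, edgeR's quasi-likelihood test). Among the induced libraries, replicate 3 stood alone. Its score on principal component 1, with 44.4% of the variance, was 75.2, against 15.1 and 12.8 for replicates 1 and 2, and the controls scored -42.3 to -28.1. Values without this library are given beside the results that rest on it. As to cell identity, the adrenergic neuroblastoma markers HAND2 and GATA3 ranged from 99.9 to 559 CPM over all libraries, TH (tyrosine hydroxylase) from 0.665 to 1.58 CPM, and TFAP2B had 1 count in a single library. The mesenchymal marker VIM ranged from 360 to 475 CPM. The RNA of these bulk cultures does not tell more RNA per cell from more expressing cells.

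Of the 10 genes, 9 passed the filter on counts. In the fit across all genes CRH and VGF lay past the threshold as higher and CHGA and CHGB as lower (edgeR, adjusted p under 0.05), where 1.02% and 2.38% of all genes tested did so. Since this contrast served to choose the genes, the count restates that choice and is no test of it. In 5 of the 9 genes the control and induced libraries did not overlap, 3 of them higher and 2 lower after induction, and 26.3% of all genes tested showed such a separation. Leaving out 1 library at a time moved the log2 fold change of CRH between 2.25 and 3.47, that of VGF between 2.09 and 3.03, that of CHGA between -1.46 and -0.93 and that of CHGB between -2.53 and -1.80. Over all genes, 298 were called higher with the 6 libraries, 18 to 169 when a library other than MYCN-induced replicate 3 was left out, and 1060 without that replicate.

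**Figure D1:**
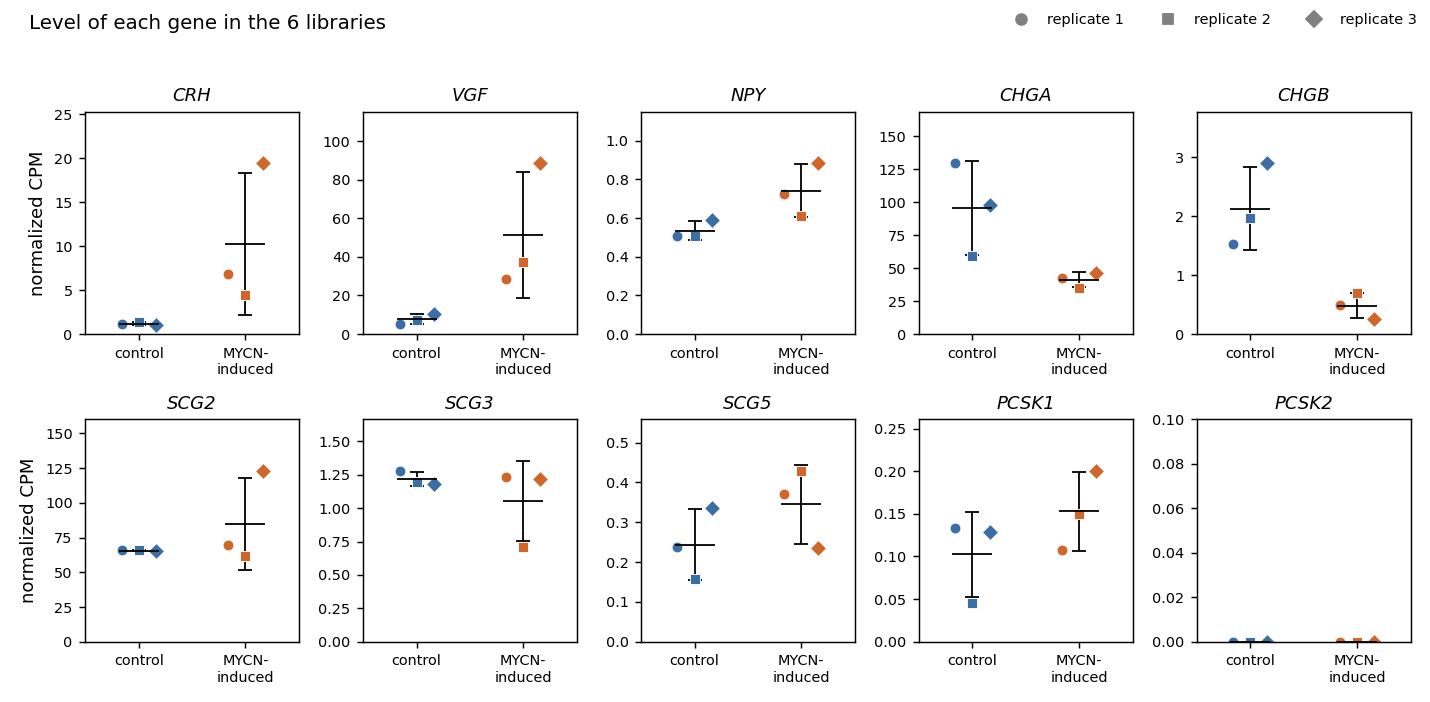
Normalized CPM (vertical axes, linear, each starting at 0) of the 10 genes in 3 control (blue) and 3 MYCN-induced (orange) libraries, with horizontal lines for the means and bars for the SD (n = 3). CRH and VGF were higher in every induced than in every control library, CHGA and CHGB were lower, and PCSK2 was at 0 throughout.

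CRH was a low gene in control cells and differed most among the 10. Its level was 1.13, 1.42 and 1.03 CPM in the controls and 6.87, 4.42 and 19.5 CPM in MYCN-induced replicates 1, 2 and 3. The conditions did not overlap, and the induced libraries were much more spread out than the controls, with replicate 3 the highest. The means were 1.19 ± 0.21 and 10.3 ± 8.08 CPM (SD, n = 3 each), and the log2 fold change was 3.11 ± 0.53 (SE), or 8.63-fold. Without MYCN-induced replicate 3 it was 2.25 ± 0.22, the lowest of the values obtained by leaving out 1 library, which reached up to 3.47. Behind these levels stood 104 to 126 counts in the controls and 412 to 1651 in the induced libraries. The gene lies at 66176376 to 66178464 on the minus strand of chromosome 8 (GRCh38) and has 2 blocks of exons, 1288 bases in all.

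VGF encodes a granin-like precursor of several secreted peptides. Control replicates 1, 2 and 3 had 5.28, 7.28 and 10.6 CPM, and the MYCN-induced replicates had 28.3, 37.3 and 88.6 CPM. The lowest induced library was thus above the highest control, and replicate 3 was again the highest of the induced libraries. Means were 7.73 ± 2.71 and 51.4 ± 32.6 CPM (SD, n = 3 each). The log2 fold change was 2.73 ± 0.45 (SE), or 6.65-fold, and 2.09 ± 0.28 without MYCN-induced replicate 3. VGF is located on chromosome 7 (101162509 to 101165569, minus strand), with 2680 bases of exon.

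NPY, the other neuropeptide precursor, remained near the lower end of detection. It had 0.506, 0.508 and 0.592 CPM in the controls and 0.724, 0.612 and 0.885 CPM in the induced libraries, from 45 to 75 counts per library. The groups did not overlap, but the closest libraries, control replicate 3 and MYCN-induced replicate 2, had 60 and 57 counts with exact Poisson 95% intervals of 45.8 to 77.2 and 43.2 to 73.9. The log2 fold change was 0.46 ± 0.20 (SE), and without MYCN-induced replicate 3 it was 0.32.

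CHGA had the highest mean level of the 10 genes in control cells and was lower after induction. Control replicates 1, 2 and 3 differed widely, at 130, 59.0 and 97.8 CPM. The induced replicates were close to each other, at 42.5, 34.9 and 46.7 CPM, and all lay below the lowest control. The control mean was 95.5 ± 35.5 and the induced mean 41.4 ± 5.95 CPM (SD, n = 3 each). CHGA was thus 2.31-fold lower, with a log2 fold change of -1.21 ± 0.26 (SE). Leaving out MYCN-induced replicate 3 left the value at -1.29. It depended more on the controls, at -0.93 without control replicate 1 and -1.46 without control replicate 2. CHGA lies on chromosome 14 (92923150 to 92935285, plus strand).

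CHGB, the related chromogranin, was also lower, although from a much smaller level. It stood at 1.52, 1.96 and 2.90 CPM in the controls and at 0.493, 0.698 and 0.259 CPM in the induced libraries, from 159 to 294 and 22 to 65 counts. MYCN-induced replicate 3, the library in which CRH and VGF were highest, had the lowest CHGB. The log2 fold change was -2.13 ± 0.37 (SE), or 4.37-fold lower, and it was -1.80 without that library. Both chromogranins thus differed from CRH and VGF in direction, and this was so with and without MYCN-induced replicate 3.

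SCG2, the precursor of secretoneurin, was the steadiest of the abundant genes in control cells, at 65.7, 66.1 and 65.1 CPM. In MYCN-induced replicates 1 and 2 it had 69.8 and 61.5 CPM, on either side of the controls, whereas replicate 3 had 123 CPM. The log2 fold change of 0.37 ± 0.23 (SE) rested on this library, since it was 0.01 ± 0.06 without it. SCG3, a granin that binds chromogranin A in the vesicle, had 1.28, 1.20 and 1.18 CPM in the controls and 1.23, 0.708 and 1.21 CPM in the induced libraries, where replicate 2 stood low. Its log2 fold change was -0.22 ± 0.22 (SE), and without MYCN-induced replicate 2 it was 0.004.

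SCG5 encodes 7B2, the chaperone of PC2. It had 14 to 33.5 counts in the controls and 20 to 40.5 in the induced libraries, the groups overlapped, and its log2 fold change was 0.49 ± 0.34 (SE). A total of 11 of its exon bases, 0.5%, are shared with SCG5-AS1 on the opposite strand, which had 0 counts in all libraries. PCSK1 had 4 to 14 counts in the controls and 7 to 17 in the induced libraries, again with overlap. The exact Poisson 95% interval of its lowest library reached from 1.09 to 10.2 counts, and differences in PCSK1 were not detectable at this depth. PCSK2 had 0 counts in all 6 libraries, for which a limit of 3 counts, or 0.0293 to 0.0465 CPM per library, was set in place of a two-sided interval, for counting error only. It shares 40 exon bases with ENSG00000287241, also at 0 counts. Both prohormone convertases in the set were thus at or near the limit of detection in the cells with abundant CHGA and SCG2.

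**Figure D2:**
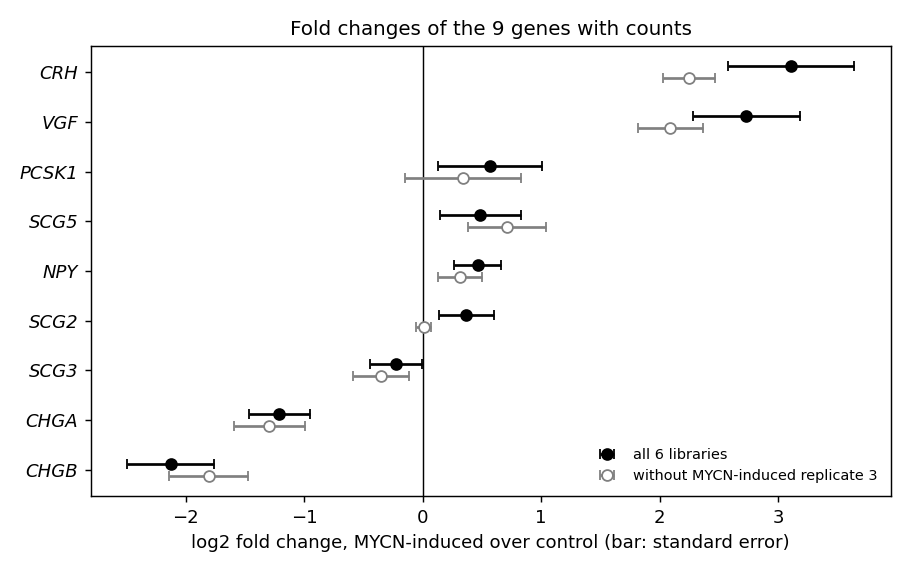
Log2 fold change (horizontal axis) between MYCN-induced and control libraries for the 9 genes with counts, with bars for the standard error, from all 6 libraries (filled) and without MYCN-induced replicate 3 (open). CRH and VGF lie above 2 in both, CHGA and CHGB below -1 in both, and SCG2 moves from 0.37 to 0.01.

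Levels of different genes were compared per length, as transcripts per 1000000 (TPM) over the exon lengths in the count data. In the controls the order by mean TPM was CHGA (52.2 ± 21.3), SCG2 (41.8 ± 2.30), VGF (4.68 ± 1.42), CRH (1.52 ± 0.28), NPY (0.98), CHGB (0.78), SCG3 (0.63), SCG5 (0.18), PCSK1 (0.03) and PCSK2 at 0 (SD, n = 3). CHGA and SCG2 overlapped in range, as did NPY with CHGB (NPY being higher within each control library) and CHGB with SCG3, while the other neighbours in the order were apart in all libraries. In induced cells SCG2 came first with 52.4 ± 13.4 TPM, followed by VGF with 30.1 ± 15.1, CHGA with 22.2 ± 1.25 and CRH with 12.2 ± 8.10. The ranges of SCG2 and VGF, of VGF and CHGA, and of CHGA and CRH overlapped, so these neighbours were not apart beyond the spread between libraries. Within each induced library, however, SCG2 was above VGF and CHGA above CRH, in MYCN-induced replicate 3 only at 21.9 against 21.5 TPM for CHGA and CRH. VGF and CRH made up 3.91%, 7.57% and 7.42% of the summed TPM of the 10 genes in the controls, and 27.2%, 32.1% and 42.7% in the induced libraries. The share of CHGA and SCG2 together was 94.1%, 89.5% and 89.7% in the controls and 70.3%, 65.5% and 55.9% after induction. The sum itself overlapped between the conditions, with 82.2 to 126 TPM in the controls and 98.5 to 160 TPM in the induced libraries. The ratio of VGF to CHGA TPM was 0.046, 0.139 and 0.123 in the controls and 0.753, 1.20 and 2.14 in the induced libraries, so VGF stood above CHGA in MYCN-induced replicates 2 and 3 only.

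**Figure D3:**
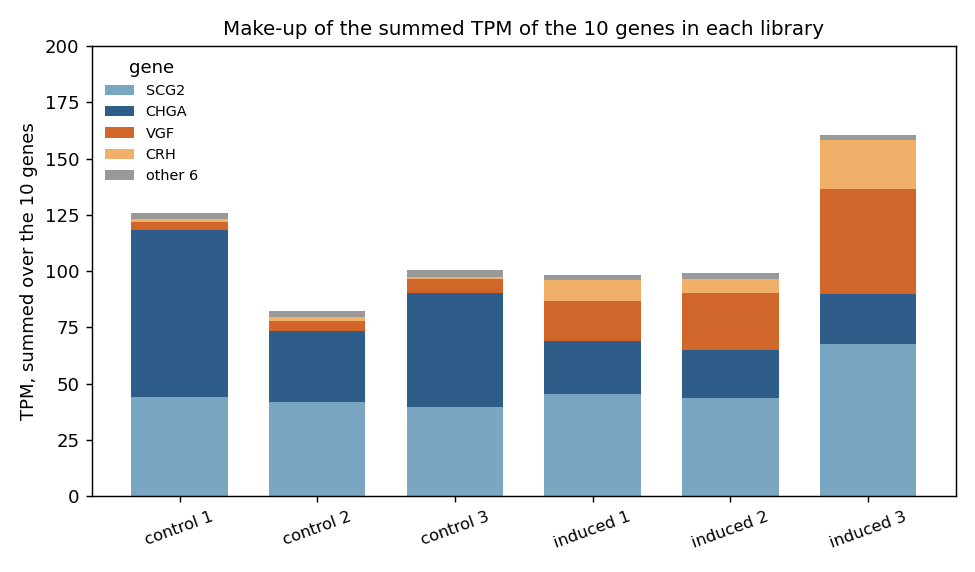
Stacked TPM (vertical axis, starting at 0) of SCG2, CHGA, VGF, CRH and the other 6 genes together in each of the 6 libraries. CHGA and SCG2 fill 89.5% to 94.1% of each control bar, and VGF and CRH fill 27.2% to 42.7% of each induced bar.

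Genes with the most similar profile to CRH and VGF were sought among the 18535 genes with a mean of at least 1 CPM. The measure was the root mean square difference of log2 CPM over the 6 libraries, after subtracting the mean of the controls. Closest to CRH were SLC7A11-AS1 (0.30), SLC7A11 (0.34), PCK2 (0.48), ENSG00000249328 (0.49) and VGF (0.51). SLC7A11 encodes the cystine transporter of the plasma membrane and PCK2 the mitochondrial form of phosphoenolpyruvate carboxykinase. SLC7A11 and SLC7A11-AS1 overlap in part on chromosome 4 on opposite strands and were counted without strand according to the header. Any read pairs over exons of both would thus be shared between them. How far their exons overlap was not computed, so their values may not be independent. Nearest to VGF were ANXA10 (0.45), ENSG00000249328 (0.50), CRH (0.51), STC2 (0.51) and PTPRN (0.54). PTPRN encodes the dense-core vesicle protein IA-2 and STC2 the secreted glycoprotein stanniocalcin 2. CRH and VGF were both chosen for a large rise in these libraries, so their closeness to each other follows in part from that choice. SLC7A11, PCK2 and STC2 also belong to the stress response list described below. All of these genes were highest in MYCN-induced replicate 3, and this library weighs heavily in the measure.

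VIP encodes vasoactive intestinal peptide and had the highest control TPM among 54 other neuropeptide genes. It measured 21.3, 21.1 and 21.3 CPM in the controls and 57.1, 42.2 and 216 CPM in the induced libraries. All induced libraries were above all controls, and replicate 3 was far above the other two. The log2 fold change of 2.31 ± 0.56 (SE) missed the threshold (adjusted p = 0.074, edgeR, 0.00367 to 0.27 over the alternatives), and it was 1.23 without MYCN-induced replicate 3, with an adjusted p of 0.00367. Of the 54 genes, 21 passed the count filter, none was called by edgeR (0 higher and 0 lower, and 1 each at an unadjusted p under 0.05, which 8.13% of all genes tested reached as higher and 10.6% as lower), DESeq2 called 1 (VIP, higher) beside 3.11% higher and 4.12% lower over all genes, and their median log2 fold change was 0.15 beside -0.0004 over all genes tested. GAL (galanin), PMCH, NUCB2 and NPB, next to VIP in control TPM, had log2 fold changes of 0.23, -0.34, 0.15 and -0.14.

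Of 20 enzymes and inhibitors of prohormone processing, 16 passed the count filter, with a median log2 fold change of -0.034. By edgeR 0 were called higher and 1 lower (over all genes 1.02% and 2.38%). At an unadjusted p under 0.05 (8.13% of all genes higher, 10.6% lower) there were 2 in each direction. DESeq2 called 0 higher and 2 lower (CPE and MME), beside 3.11% and 4.12% over all genes. The gene called lower was MME, neprilysin, an enzyme that degrades peptides outside the cell. It fell from 43.5, 40.0 and 35.0 CPM in the controls to 21.8, 20.2 and 11.3 CPM (log2 fold change -1.16 ± 0.23 SE, adjusted p = 0.0387, edgeR). Its call was lost without each of control replicates 1, 2 and 3 and MYCN-induced replicates 1 and 2, with adjusted p from 0.0723 to 0.168. CPE, carboxypeptidase E, had 21.9, 22.6 and 22.1 CPM in the controls and 12.4, 15.8 and 8.08 CPM in the induced libraries, without overlap. Its log2 fold change of -0.87 ± 0.21 (SE) did not pass (adjusted p = 0.0722, edgeR), although it did in several alternatives, with a range from 0.00386 to 0.25. PAM was the most abundant of the named enzymes at 213 to 231 CPM in the controls and had a log2 fold change of 0.21 ± 0.08 (SE). FURIN, the convertase of the constitutive secretory route, had 0.52 ± 0.19 (SE). PCSK1N, which encodes an inhibitor of PC1/3, was below 0.7 CPM in all libraries.

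Among 44 genes of the dense-core vesicle and its release, 38 passed the count filter, with a median log2 fold change of 0.019. By edgeR 1 was called higher and 3 lower (over all genes 1.02% and 2.38%). At an unadjusted p under 0.05, 3 were higher and 7 lower (over all genes 8.13% and 10.6%). DESeq2 called 2 higher and 4 lower (over all genes 3.11% and 4.12%). CYB561, the vesicle cytochrome that supplies electrons for peptide amidation, rose (log2 fold change 0.78 ± 0.17 SE, adjusted p = 0.0496, edgeR). ICA1 (-1.32 ± 0.15 SE, adjusted p = 0.0071), SYT9 (-0.92 ± 0.10, adjusted p = 0.00515) and SYT11 (-0.42 ± 0.08, adjusted p = 0.038) fell, in edgeR's log2 fold change. SYT9 is a calcium sensor of vesicle release, and ICA1 binds to membranes of immature vesicles. The calls of ICA1 and SYT9 were lost without control replicate 2, at adjusted p of 0.0522 and 0.0502. Those of CYB561 and SYT11 were lost without each of control replicates 1, 2 and 3 and MYCN-induced replicates 1 and 2, at adjusted p from 0.0715 to 0.197, and with library size scaling alone CYB561 had an adjusted p of 0.066, and with upper-quartile scaling 0.062. PTPRN, with a profile close to that of VGF, had 1.47, 1.38 and 1.59 CPM in the controls and 3.91, 3.69 and 21.3 CPM in the induced libraries. Its log2 fold change of 2.71 ± 0.68 (SE) missed the threshold (adjusted p = 0.0791, edgeR, 0.00263 to 0.287 over the alternatives), and without MYCN-induced replicate 3 it was 1.37. CADPS, a priming factor of dense-core vesicles, had at most 1 count per library.

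Receptors and binding proteins for the peptides were mostly at low levels. Of 9 such genes, 3 passed the count filter. NPY1R, the Y1 receptor of NPY, fell from 12.9, 11.8 and 11.1 CPM in the controls to 4.98, 4.57 and 3.41 CPM (log2 fold change -1.47 ± 0.15 SE, adjusted p = 0.00514, edgeR). This call was kept when any library was left out, with adjusted p from 0.00213 to 0.0429. CRHR2, a receptor for CRH and the urocortins, had 0.726, 0.970 and 0.582 CPM in the controls and 1.94, 1.07 and 2.34 CPM after induction, without overlap, but its log2 fold change of 1.23 ± 0.31 (SE) missed the threshold (adjusted p = 0.0816, edgeR, 0.00409 to 0.246 over the alternatives). C1QBP, a protein reported to bind a VGF peptide and mentioned after its values were seen, had a log2 fold change of 0.24 ± 0.07 (SE) and an adjusted p of 0.119 (edgeR), and the median of the 3 tested genes was 0.235. CRHR1, the main receptor for CRH, had at most 0.5 counts per library and the binding protein CRHBP at most 3. NPY5R reached 7.5 and C3AR1, a receptor for a VGF peptide, reached 11 counts.

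Among 18 transcription regulators linked to these genes, all were tested, and the median log2 fold change was -0.005. By edgeR 3 were called higher and 2 lower (over all genes 1.02% and 2.38%). EGR1 (1.02 ± 0.16 SE, adjusted p = 0.0208), NR3C1 (0.44 ± 0.09, adjusted p = 0.0487) and REST (0.29 ± 0.06, adjusted p = 0.0464) rose in edgeR's log2 fold change. EGR1 is an immediate early gene, NR3C1 encodes the glucocorticoid receptor, and REST a repressor of neuronal genes in cells outside the nervous system. INSM1, a factor of neuroendocrine development, fell (log2 fold change -0.90 ± 0.10 SE, adjusted p = 0.00664, edgeR). INSM1 was called whichever library was left out. EGR1 was lost without control replicate 1 or 2 or MYCN-induced replicate 1 or 2, and NR3C1 and REST without any library but MYCN-induced replicate 3, with adjusted p from 0.0543 to 0.24 for these 3 genes. With library size scaling alone, NR3C1 and REST also missed the threshold, at 0.0527 and 0.147, and with upper-quartile scaling at 0.0672 and 0.134. CREB1, whose product binds the cAMP response element, had a log2 fold change of -0.005 ± 0.08 (SE), and CREM 0.20 ± 0.14. Among 14 early genes of cAMP signalling, 1 was called higher and 0 lower by edgeR, and the median log2 fold change was 0.196. At an unadjusted p under 0.05 (8.13% of all genes higher, 10.6% lower), 5 were higher and 1 lower, and DESeq2 called 3 higher and 0 lower. The called gene was SIK1, chosen for mention after its values were seen, at 0.201 to 0.237 CPM in the controls and 0.472 to 0.543 CPM after induction. Its call was lost when any library but MYCN-induced replicate 3 was left out (adjusted p from 0.0565 to 0.126), and a near-identical copy, SIK1B, makes its counts uncertain.

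Genes of the integrated stress response, which is run by ATF4 and raises amino acid supply, stood highest in the same library as CRH and VGF. Of 26 listed genes, 24 were tested, and 23 of them had a log2 fold change above 0. By edgeR 4 were called higher and 0 lower (over all genes 1.02% and 2.38%). At an unadjusted p under 0.05, 22 were higher and 0 lower (over all genes 8.13% and 10.6%), and DESeq2 called 13 higher and 0 lower (over all genes 3.11% and 4.12%). The median log2 fold change was 1.81, and 0.748 without MYCN-induced replicate 3, a fit in which 15 of the 24 were called higher. The summed level of the list was 536 to 586 CPM in the controls and 1177, 875 and 2868 CPM in MYCN-induced replicates 1, 2 and 3, and no gene of it was at 0 throughout. Per library, the median log2 level over the controls was 0.857, 0.433 and 2.67 in the induced replicates, the same order as CRH, whose values were 2.54, 1.90 and 4.04. For VGF these were 1.93, 2.33 and 3.58, with the order of replicates 1 and 2 exchanged. ATF4 rose from 189, 189 and 204 CPM in the controls to 319, 300 and 547 CPM (log2 fold change 1.005 ± 0.212 SE, adjusted p = 0.0475, edgeR). SLC7A11 (3.52 ± 0.75 SE, adjusted p = 0.0494), PHGDH (2.09 ± 0.44, adjusted p = 0.0482) and MTHFD2 (1.70 ± 0.30, adjusted p = 0.0278) rose with it in edgeR's log2 fold change. All 4 calls were lost without each of control replicates 1, 2 and 3 and MYCN-induced replicate 1, with adjusted p from 0.0794 to 0.219. With RLE size factors SLC7A11 and PHGDH also missed the threshold (0.0522 and 0.0501), and with at least 100 counts SLC7A11, PHGDH and ATF4 did (0.0627, 0.0607 and 0.0586). MTHFD2 is also named in the paper as a MYCN target, and it was measured there by qRT-PCR to check the induction. Whether its rise belongs to the stress response or to MYCN was not tested. The part of the stress response in the levels of CRH, VGF and SCG2 was not tested either.

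**Figure D4:**
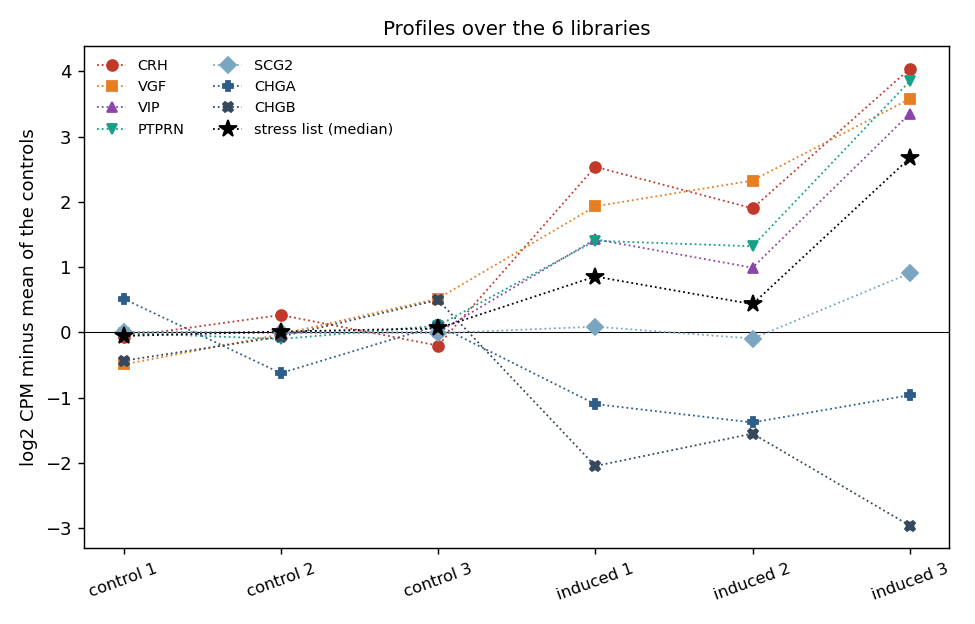
Log2 CPM minus the mean of the controls (vertical axis) in each of the 6 libraries (horizontal axis) for CRH, VGF, VIP, PTPRN, SCG2, CHGA and CHGB, with the median of the stress response list as black stars; dotted lines only join the points of 1 gene. CRH, VGF, VIP, PTPRN and the list median are highest in MYCN-induced replicate 3, where CHGB is lowest. CHGA lies at -1.10, -1.38 and -0.96 in the 3 induced libraries.

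Markers of neuronal differentiation were called in both directions. Of 16 genes, 14 were tested, and the median log2 fold change was -0.124. By edgeR 1 was called higher and 2 lower (over all genes 1.02% and 2.38%). At an unadjusted p under 0.05, 2 were higher and 5 lower (over all genes 8.13% and 10.6%). DESeq2 called 2 higher and 2 lower (over all genes 3.11% and 4.12%). Without MYCN-induced replicate 3 edgeR called 2 of the 14 higher and 4 lower (over all genes 1060 and 1279). MAP2, a microtubule protein of dendrites, rose (0.83 ± 0.11 SE, adjusted p = 0.0122), and DCX, a microtubule protein of young neurons, fell (-1.20 ± 0.16, adjusted p = 0.011), in edgeR's log2 fold change. The synaptic vesicle protein gene SYP, mentioned after its values were seen, was also called lower, from a level of 0.907 to 1.02 CPM in the controls. MAP2 was lost without control replicate 2 or 3 (adjusted p = 0.0946 and 0.0777, edgeR), DCX without control replicate 1, 2 or 3 (0.0539 to 0.064), and SYP without any library but MYCN-induced replicate 3 (0.0534 to 0.184). Among 8 adrenergic markers, 7 were tested, none was called by edgeR, and the median was -0.087. At an unadjusted p under 0.05, 0 were higher and 2 lower (over all genes 8.13% and 10.6%). DESeq2 called 0 higher and 2 lower (over all genes 3.11% and 4.12%). Without MYCN-induced replicate 3 edgeR called 0 of the 7 higher and 2 lower. Of the 8 mesenchymal markers, all were tested and 6 had a log2 fold change above 0. By edgeR 0 were called higher and 1 lower, and the median was 0.242. At the same unadjusted p, 4 were higher and 1 lower. DESeq2 called 3 higher (FOSL1, VIM and WWTR1) and 1 lower (FN1), beside 3.11% and 4.12% over all genes. Without MYCN-induced replicate 3 edgeR called 5 of the 8 higher and 1 lower, where 1060 and 1279 genes were called over all genes. The gene called lower by edgeR was FN1, fibronectin, with a log2 fold change of -0.71 ± 0.13 (SE, adjusted p = 0.033, edgeR), whose call was lost without any library but MYCN-induced replicate 3, at adjusted p from 0.0593 to 0.168.

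**Figure D5:**
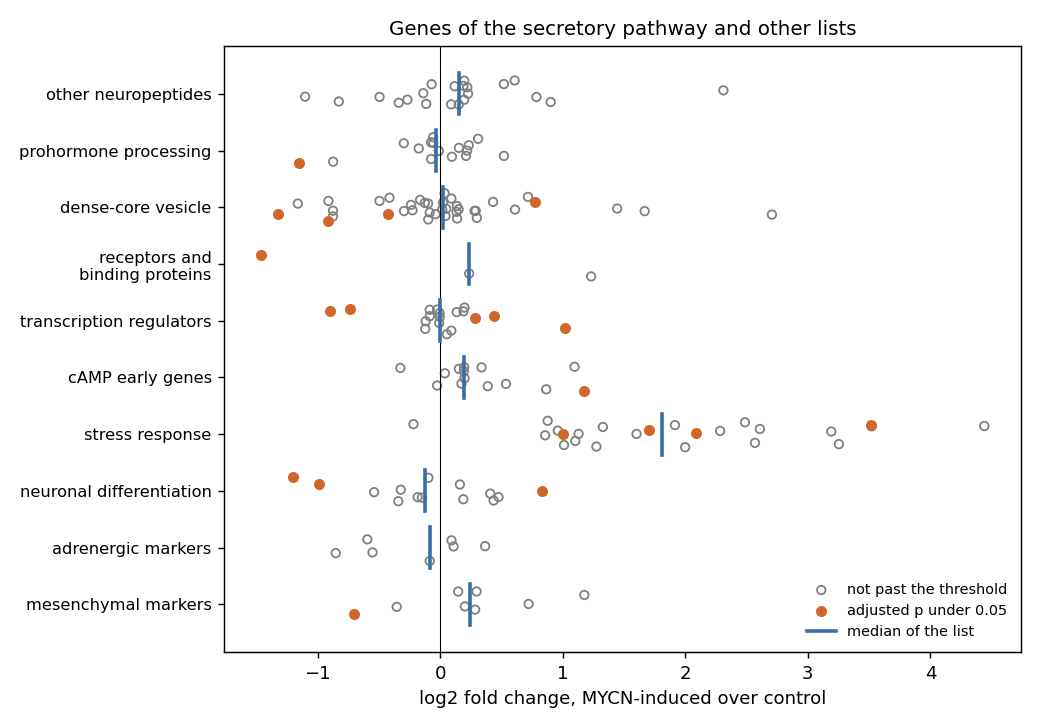
Log2 fold change between MYCN-induced and control libraries (horizontal axis) of the tested genes in 10 lists, each point 1 gene, filled where the adjusted p was under 0.05, with blue lines for the list medians. Called genes lie on both sides of 0 in the vesicle, regulator and differentiation lists, and the stress response list has a median of 1.81.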

How the data were processed

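RNA was sequenced from 3 control cultures of SK-N-AS cells and 3 with induced MYCN. The authors deposited estimated counts: read pairs over the exons of each gene, from unique STAR 2.7.1a alignments to GRCh38. The header names featureCounts 1.6.4, with pairs that overlap several genes shared in fractions and no strand option. The submitters' processing notes name version 1.5.1, and the methods name a strand option. Groups and replicate numbers came from the sample titles. Gene symbols matched 99.72% of 60651 identifiers, and 92 spike-in sequences, at 0, were left out.

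Counts were rounded, and genes that reached 10 counts in 3 or more libraries were fitted with edgeR 4.0.16 (R 4.3.3): TMM normalization, quasi-likelihood test, Benjamini-Hochberg adjustment over all genes, threshold 0.05. The SE is the log2 fold change divided by the square root of F. TPM were computed from the counts and the exon lengths in the same data, and profiles used a prior count of 0.5. At 10 counts, counting error is large, while abundant genes are limited by how much the cultures varied (biological coefficient of variation 0.153). Intervals cover counting error only. The p-values set the difference between the groups against the spread among the 3 cultures of each group. All cultures were of this line, so the spread between cell lines is not covered. All replicate pairs differed by more than sampling noise (chi-square per gene 12.2 to 150.6), so each was counted as 1 sample. The fit was tested on simulated counts.

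The 10 genes and the 10 context lists, written from general knowledge, were chosen with earlier results of these data known. Named besides the 10 genes were MYCN, 17 genes set by name, up to 3 called rises and 3 called falls of each list among genes averaging 1 CPM or more, the 5 other neuropeptides with the highest control TPM, the 5 closest profiles, genes sharing exon bases and cell type markers. Library size, upper-quartile and RLE normalization, DESeq2 1.42.0, other filters, fractional counts, a replicate block and leaving out each library were alternatives. Protein sequences were not analysed here, and some genes of the lists are not reported here by name.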

Additional observations from a re-analysis of the deposited data

How the results depend on the processing

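The log2 fold changes of CRH, VGF, CHGA and CHGB kept their direction in all 14 alternatives, and those of NPY, SCG5 and PCSK1 in the 13 in which they were fitted, while the calls depended on which libraries entered. SCG2 was above 0 in all 14 but only at 0.008 without MYCN-induced replicate 3. SCG3 was below 0 except in 1 alternative, at 0.004 without MYCN-induced replicate 2. DESeq2 called 904 genes higher and 1199 lower, against 298 and 692 with edgeR, and 28 higher genes in the context lists against 10. Without a count filter 470 genes were higher, and 25 in the context lists. With at least 100 counts, 6 context genes were higher, and with that filter or with RLE size factors only 1 of the 10 genes was called lower, CHGA no longer passing. Leaving out 1 library at a time gave 18 to 1060 higher and 72 to 1279 lower genes, 0 to 31 higher and 2 to 16 lower context genes, and 0 to 2 higher and 0 to 2 lower among the 10 genes, with 0 of them higher without any control library and 1 without MYCN-induced replicate 1. For the 10 genes, calls and lost calls come from the contrast that served to choose them, and are no test. Over all genes, the highest counts came without MYCN-induced replicate 3 and the lowest without control replicate 2.

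Libraries with the same number correlated at 0.201, -0.02 and 0.071 in their deviations from the group means. Those with different numbers correlated at -0.18 to 0.077. The value of 0.201 was the highest, so whether the numbers pair the cultures is not settled. A replicate block gave 265 higher and 575 lower genes. The log2 fold changes of CRH, VGF, CHGA and CHGB were then 2.83 ± 0.45, 2.62 ± 0.15, -1.15 ± 0.15 and -2.13 ± 0.37 (SE). Without the block these SE were 0.53, 0.45, 0.26 and 0.37, so the block lowered mainly those of VGF and CHGA. Under this block CYB561, SYT11, NR3C1, REST, SIK1, SYP and SLC7A11 missed the threshold, at adjusted p (edgeR) from 0.0546 for SIK1 to 0.0944 for REST, and CPE passed it at 0.0433. With a mean of at least 0.1 CPM, 4 of the 10 closest profiles were shared with those above. In the 100 bases from 50 before to 50 after the start, 0 of the 7 genes held the whole TGACGTCA. It began 79, 54 and 77 bases before the start in VGF, CHGA and PCSK1. The cause of these differences was not tested. SCG5, PCSK1 and NPY are limited by depth.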

Other observations

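A pair of further genes with a near-absent level in the controls were seen only after their values were known. ADM2, which encodes the peptide intermedin, had 0, 2 and 2 counts in control replicates 1, 2 and 3 and 9, 7 and 133 counts in the MYCN-induced replicates. The stress hormone gene FGF21 had 1 count in each control and 6, 4.5 and 328.5 counts after induction. Neither reached 10 counts in 3 libraries, so neither entered the fit with the count filter, and the high value stood in MYCN-induced replicate 3 alone. Without a count filter edgeR gave an adjusted p of 0.0433 for ADM2 and of 0.0565 for FGF21. Of the 54 other neuropeptide genes, 6 had 0 counts in all 6 libraries.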
